A study of Mus musculus with 6 samples.

Results

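Fatty acid oxidation genes were examined in cultured cardiomyocytes of newborn mice, labelled by whether the glucocorticoid receptor gene was deleted. The set held 32 genes chosen by name for their part in mitochondrial or peroxisomal breakdown of fatty acids, and all 32 were found among 52550 gene rows by matching Ensembl identifiers to symbols of the mouse annotation GENCODE M21 (build GRCm38). GR-cKO libraries (n = 3) came from cardiomyocytes in which the receptor gene had been deleted in a cardiomyocyte-specific way, and control libraries (n = 3) from cardiomyocytes labelled ctrl for genotype. The labels name neither the Cre line, the deleted exon nor the mouse strain, and they do not say whether a replicate was 1 animal, a litter or a culture, so p-values measure only the spread between these libraries. Cells of both groups were taken at postnatal day 1, enriched by magnetic sorting, grown for 48 hours with 5% horse serum plus 10% FBS, and then left without serum for 24 hours. The labels give the treatment of both groups as ctrl and name no hormone.

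Heart muscle burns long-chain fatty acids for most of its energy once it has matured, while the heart before birth relies more on glucose and lactate. A fatty acid is bound by a carrier protein in the cytosol, activated to an acyl-CoA, carried across the mitochondrial membranes as a carnitine ester and shortened in a repeating cycle of dehydrogenation, hydration, dehydrogenation and thiolysis. The electrons pass through the electron transfer flavoprotein to the respiratory chain. Very long and branched chains are first shortened in peroxisomes, and the nuclear receptors PPAR alpha and PPAR delta induce many genes of the pathway.

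The libraries counted tags near the polyadenylated end of each messenger RNA, so a count does not grow with transcript length. Depth ran between 19371508 and 22583596 gene counts. Levels are given as CPM (counts scaled to a common library total) after TMM scaling, which adjusts for library composition. The targeted gene Nr3c1 stood at 46.2, 42.8 and 44.1 CPM in GR-cKO libraries, against 68.2, 73.9 and 72.4 CPM in control libraries (log2 fold change -0.69 ± 0.09, edgeR adjusted p = 3.30e-06). A tag outside the deleted part checks the labels only in part. Markers of cardiomyocytes, such as Tnnt2, Actc1 and Myh6, were all detected, and the 12 in the list summed to 35391 to 36512 CPM in GR-cKO libraries, against 28477 to 29860.3 CPM in control libraries, with 8 higher and 1, Pln, lower. Adipocyte markers were absent or nearly so, with Plin1, Cidec, Lep and Cfd at 0 in every library. Markers of other heart cells were present after the sort, and their values are given further below. Xist, which is transcribed from the inactive X chromosome, was at 0, 0.0996 and 0 CPM in GR-cKO libraries and at 293, 271 and 272 CPM in control libraries, so the sex of the animals cannot be told apart from genotype.

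Messenger RNA levels of the pathway differed little between the genotypes. Of the 32 genes, all of which passed the filter on low counts, 1 fell in GR-cKO and none rose (edgeR quasi-likelihood test, Benjamini-Hochberg adjusted p below 0.05 over 14386 genes). The gene that fell was Acadm, which encodes medium-chain acyl-CoA dehydrogenase. Over all genes tested, 7.63% rose and 7.19% fell, 14.8% in either direction. At an unadjusted p below 0.05 (edgeR), 2 of the 32 genes were higher and 2 lower, against 1884 higher and 1872 lower of 14386 genes. DESeq2 called none of the 32 higher and 1 lower, against 1116 higher and 975 lower over all genes. With scaling by the ERCC spike-in RNAs, no member passed in either direction, while the balance over all genes moved to 1355 higher and 522 lower, against 1097 higher and 1035 lower with TMM. The groups did not overlap for 7 members, 5 with all GR-cKO libraries higher and 2 with all lower, against 29.9% of all tested genes.

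The fold changes themselves were small and bounded. The median log2 fold change of GR-cKO over control was -0.04 over the 32 genes and -0.01 over all genes tested, and the median size of the change, whatever its sign, was 0.11 in the set and 0.20 over all genes. The 95% interval of the fold change lay within 1.5-fold either way for 27 of the 32 genes, against 51.3% of all genes tested. An interval narrows with the number of counts, and these 27 were the members with a mean of at least 20 CPM, a level chosen after the values were seen. Among all genes of at least 20 CPM, 86.8% had an interval within 1.5-fold and 21.3% passed the test. At that level the median size of the log2 fold change was 0.07 for the 27 members and 0.13 over all genes. The remaining 5 members, Slc27a1, Ehhadh, Acot2, Ppara and Ppard, were under 20 CPM, and none of their intervals lay within 1.5-fold. Their intervals reached from -1.07 to 1.90 on the log2 scale.

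**Figure D1:**
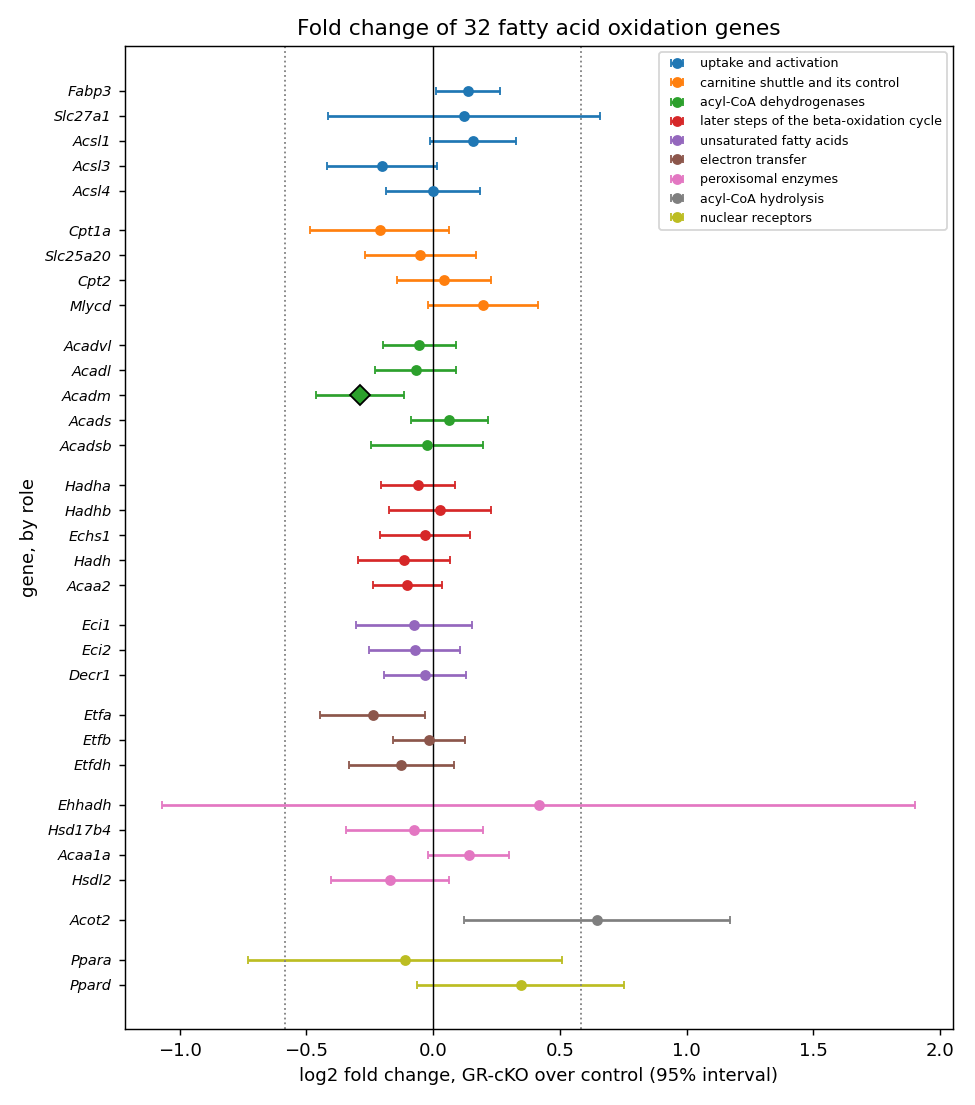
Log2 fold change of GR-cKO over control for the 32 genes, grouped by role (colours), with 95% intervals from the edgeR fit (3 libraries per group). Dotted lines mark 1.5-fold either way, and the diamond marks Acadm, the member with an adjusted p below 0.05, at -0.29; the widest interval is that of Ehhadh.

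The summed level of the set was 3260, 3307 and 3238 CPM in GR-cKO and 3328, 3318 and 3279 CPM in control. The groups overlapped in this TMM-scaled sum. As a share of all gene counts, with no TMM factor, the set held 0.320%, 0.324% and 0.325% in GR-cKO libraries, against 0.332%, 0.336% and 0.335% in control libraries. On that scale every GR-cKO library was below every control library. By role, with TMM scaling, the sum for uptake and activation was 777 to 821 CPM in GR-cKO and 715 to 771 CPM in control. The later steps of the cycle summed to 779.8 to 815 CPM in GR-cKO and 826 to 839 CPM in control. Both of these role sums were separated between the groups, in opposite directions. Fabp3 made up most of the uptake and activation sum. The sums for the other roles overlapped between the groups, except that of Acot2, which stands alone in its role. As shares of gene counts, the uptake and activation sums overlapped, and those of the acyl-CoA dehydrogenases, the later steps and electron transfer were each lower in every GR-cKO library than in every control library. Without TMM factors the median fold change over all genes was also lower than with them, as given in the last section.

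**Figure D2:**
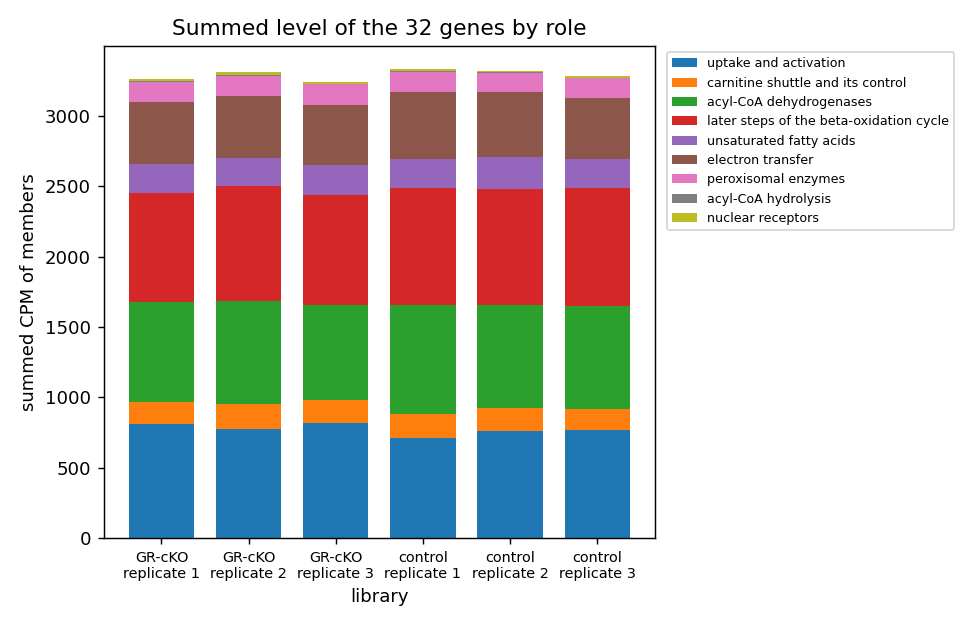
Summed CPM of the 32 genes in each library (bars from 0), split by role (colours), for 3 GR-cKO libraries and then 3 control libraries. Totals lie between 3238 and 3328 CPM (TMM-scaled), and the groups overlap in them.

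Before the values by role, promoter sequences are shown for the member that fell, for a dehydrogenase of the same family that did not pass, and for a gene pair transcribed in opposite directions from a shared stretch. The sequences are RefSeq windows of 250 bases before to 50 bases after the annotated start (build GRCm38.p6), given 5′ to 3′ on the strand of the gene. Capitals mark AGGTCA, the core of nuclear receptor sites including those of PPARs, on either strand (TGACCT on the opposite one). The Acadm window is chr3:153944594-153944893 on the minus strand, the Acadvl window chr11:70015379-70015678 on the minus strand, and the Hadhb window chr5:30155003-30155302 on the plus strand.
Acadm: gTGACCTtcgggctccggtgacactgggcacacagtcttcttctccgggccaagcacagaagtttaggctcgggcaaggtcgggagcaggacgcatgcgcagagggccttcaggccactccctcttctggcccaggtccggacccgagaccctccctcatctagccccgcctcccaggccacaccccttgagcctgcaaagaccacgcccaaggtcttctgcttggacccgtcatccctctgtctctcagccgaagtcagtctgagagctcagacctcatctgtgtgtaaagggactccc
Acadvl: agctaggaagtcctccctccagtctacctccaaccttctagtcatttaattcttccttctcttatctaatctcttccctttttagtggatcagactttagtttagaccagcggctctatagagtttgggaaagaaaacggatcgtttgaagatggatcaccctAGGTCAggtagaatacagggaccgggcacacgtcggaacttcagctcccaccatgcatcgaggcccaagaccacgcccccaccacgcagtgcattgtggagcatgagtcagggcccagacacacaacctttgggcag
Hadhb: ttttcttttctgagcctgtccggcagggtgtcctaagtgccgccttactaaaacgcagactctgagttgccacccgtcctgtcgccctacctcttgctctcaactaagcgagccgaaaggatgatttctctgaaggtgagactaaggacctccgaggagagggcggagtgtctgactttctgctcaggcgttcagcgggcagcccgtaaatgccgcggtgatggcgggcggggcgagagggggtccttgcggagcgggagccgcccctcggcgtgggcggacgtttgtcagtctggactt
The AGGTCA letters stood at position -249 from the start in Acadm, on the opposite strand, and at -87 in Acadvl. RefSeq windows were matched for 29 of the 32 members, with 32 windows in all since some genes have several starts. AGGTCA was found on either strand in 4 of these 32 windows (12.5%), those of Acadm, Acadvl, Cpt1a and Echs1, and in 16.3% of all 32851 windows. The direct repeat of AGGTCA spaced by 1 base was in none of the member windows and in 0.0396% of all. AGAACA, the core of glucocorticoid receptor sites, was in 2 windows (6.25%), those of Hadh and Mlycd, and in 19.0% of all. ACGTG, the core of hypoxia response elements and of E-box variants, was in 3 (9.38%), those of Acadvl, Ppard and Slc27a1, and in 19.6% of all. These are letter matches in a short window and not binding sites.

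None of the 5 genes of uptake and activation passed the test, and -0.20 to 0.16 was the range of their log2 fold changes. Fabp3, the heart fatty acid carrier protein and the most abundant member, was at 585, 579 and 582 CPM in GR-cKO libraries, against 506, 538 and 543 CPM in control libraries. All GR-cKO libraries lay above all control libraries, with a log2 fold change of 0.14 ± 0.06 (SE; edgeR adjusted p = 0.145). Acsl1, the main long-chain acyl-CoA synthetase of the adult heart, was at 86.8, 81.5 and 94.2 CPM in GR-cKO and 75.1, 80.3 and 80.0 CPM in control. These groups also did not overlap, and the log2 fold change was 0.16 ± 0.08 (adjusted p = 0.234). Acsl3, a synthetase of the endoplasmic reticulum and lipid droplets, was at 47.6, 38.0 and 47.1 CPM in GR-cKO and 45.8, 52.4 and 54.5 CPM in control. Its groups overlapped (log2 fold change -0.20 ± 0.10, adjusted p = 0.231). Acsl4, a synthetase that prefers arachidonic acid and lies on the X chromosome, averaged 84.6 ± 10.4 CPM in GR-cKO and 84.6 ± 3.92 CPM in control (± SD with n = 3 each, as for the means that follow). It had a log2 fold change of 0.00 with a 95% interval from -0.18 to 0.19. Slc27a1, a transport protein with synthetase activity, was scarce, at 5.25 to 6.91 CPM in GR-cKO and 3.70 to 7.48 CPM in control, with an interval of the log2 fold change from -0.42 to 0.66. The end of its transcript is 95.2% identical over 167 bases to a stretch of the Slc3a2 transcript, so its level is uncertain. Where that stretch lies in Slc3a2 was not recorded. Slc3a2 was far more abundant, at 182 to 205 CPM in GR-cKO and 124 to 139 CPM in control. The last exon of Fabp3 is overlapped on the opposite strand by Zcchc17, at 38.3 to 51.2 CPM over the 6 libraries.

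The carnitine shuttle genes did not pass the test. Cpt1a, the carnitine palmitoyltransferase of liver and fetal heart that controls entry into mitochondria, was at 24.1, 28.2 and 20.7 CPM in GR-cKO libraries and 32.7, 27.0 and 24.7 CPM in control libraries. The groups overlapped widely, with a log2 fold change of -0.21 ± 0.13 and a 95% interval from -0.49 to 0.06 (adjusted p = 0.342). Slc25a20, which exchanges acylcarnitine for carnitine across the inner membrane, averaged 29.1 ± 1.30 CPM in GR-cKO and 30.1 ± 0.341 CPM in control (log2 fold change -0.05 ± 0.11). Cpt2, which turns the ester back to acyl-CoA, averaged 72.8 ± 5.73 CPM in GR-cKO and 70.7 ± 6.31 CPM in control (log2 fold change 0.04 ± 0.09). Mlycd, which removes malonyl-CoA, the inhibitor of the shuttle, was at 34.9, 35.8 and 37.1 CPM in GR-cKO and 28.5, 33.5 and 31.95 CPM in control. All GR-cKO libraries were above all control libraries (log2 fold change 0.20 ± 0.10, adjusted p = 0.244). The muscle form Cpt1b, which is no member, was listed at 0 in all 6 libraries, although heart muscle is known to use it. Its last exon is overlapped on the same strand by Gm44502, which was not found by symbol among the gene rows. Why Cpt1b was at 0 was not tested, and its level is uncertain.

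Among the acyl-CoA dehydrogenases, which open each round of the cycle and differ in the chain length they prefer, only Acadm passed the test. Acadm (ENSMUSG00000062908, GRCm38 chromosome 3, 153922357 to 153944632, minus strand) was at 123, 99.0 and 114 CPM in GR-cKO libraries, against 147, 129 and 135 CPM in control libraries. Every GR-cKO library lay below every control library. The fall was 1.22-fold, a log2 fold change of -0.29 ± 0.08 with a 95% interval from -0.46 to -0.12 (edgeR adjusted p = 0.0200). The call did not hold without GR-cKO replicate 2 (edgeR adjusted p = 0.166) or control replicate 1 (0.0976), nor with ERCC scaling (0.286). It held in 10 of 13 alternatives, and the log2 fold change stayed between -0.36 and -0.19 in all of them.

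The other 4 dehydrogenases did not pass the test. Acadvl, which takes very long chains, averaged 163 ± 5.86 CPM in GR-cKO and 169 ± 5.54 CPM in control (log2 fold change -0.05 ± 0.07). Acadl, the long-chain enzyme, averaged 251 ± 24.7 CPM in GR-cKO and 264 ± 20.2 CPM in control (log2 fold change -0.07 ± 0.08). Acads, the short-chain enzyme, was at 145 ± 5.24 CPM in GR-cKO and 139 ± 8.03 CPM in control (log2 fold change 0.06 ± 0.07). Acadsb, which acts on short branched chains from isoleucine, was at 33.1 ± 3.22 CPM in GR-cKO and 33.6 ± 1.011 CPM in control (log2 fold change -0.02 ± 0.11). Of these 4 log2 fold changes the lowest was that of Acadl at -0.07 and the highest that of Acads at 0.06. Whether the fold change of Acadm differed from theirs was not tested. The last exon of Acadvl is overlapped by Dvl2 on the opposite strand, at 56.1 to 67.7 CPM over the 6 libraries, and the strand setting of the counting is not given in the sources used here.

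None of the 5 genes of the later steps of the cycle passed the test, and their log2 fold changes lay between -0.12 and 0.03. Hadha and Hadhb encode the alpha and beta subunits of the mitochondrial trifunctional protein, which carries out hydration, dehydrogenation and thiolysis of long chains. The genes point away from each other with 85 bases between them, and their promoter windows overlap by 228 bases. Hadha was at 291, 275 and 255 CPM in GR-cKO libraries and 304, 282 and 269 CPM in control libraries, and Hadhb at 57.2, 72.7 and 70.5 CPM in GR-cKO and 59.6, 67.4 and 69.5 CPM in control. Both overlapped between the groups, with a log2 fold change of -0.06 ± 0.07 for Hadha and 0.03 ± 0.10 for Hadhb. The end of the Hadhb transcript is at least 95% identical over 150 bases or more to Gm13910 and Gm9108, which are processed pseudogenes, so its level is uncertain. Gm13910 reached at most 0.155 CPM in any library, and Gm9108 was not found by symbol among the gene rows. The last exon of Hadha is overlapped on the opposite strand by Garem2, at 1.10 to 4.02 CPM over the 6 libraries.

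Echs1, the short-chain hydratase, averaged 77.65 ± 5.23 CPM in GR-cKO and 79.4 ± 6.80 CPM in control (log2 fold change -0.03 ± 0.09). Hadh, the short-chain dehydrogenase, averaged 80.6 ± 5.06 CPM in GR-cKO and 87.3 ± 8.85 CPM in control (log2 fold change -0.12 ± 0.09). Acaa2, the mitochondrial thiolase and the third most abundant member, was at 276, 306 and 297 CPM in GR-cKO libraries, against 315, 309 and 321 CPM in control libraries. All GR-cKO libraries were lower than all control libraries, but the difference did not pass (log2 fold change -0.10 ± 0.07, edgeR adjusted p = 0.357).

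Enzymes for unsaturated fatty acids, which move or reduce double bonds so that the chain can enter the cycle, did not pass. The isomerase gene Eci1 averaged 49.2 ± 4.81 CPM in GR-cKO and 51.8 ± 8.46 CPM in control (log2 fold change -0.08 ± 0.11). Eci2, an isomerase found in mitochondria and peroxisomes, averaged 62.5 ± 4.51 CPM in GR-cKO and 65.8 ± 3.19 CPM in control (log2 fold change -0.07 ± 0.09). The reductase gene Decr1 averaged 95.2 ± 3.97 CPM in GR-cKO and 97.3 ± 5.29 CPM in control (log2 fold change -0.03 ± 0.08). Their log2 fold changes lay between -0.08 and -0.03. The end of Eci2 is 95.5% identical over 290 bases to a stretch of Eci3, which reached at most 0.432 CPM in any library.

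Of the electron transfer genes, Etfa came closest to passing. Etfa and Etfb encode the subunits of the electron transfer flavoprotein, which collects electrons from the dehydrogenases, and Etfdh the oxidoreductase that hands them to ubiquinone. Etfa was at 57.5, 55.8 and 72.8 CPM in GR-cKO libraries, against 68.6, 80.1 and 70.8 CPM in control libraries. GR-cKO replicate 3 lay within the control range and the other two GR-cKO libraries below it. The log2 fold change was -0.24 ± 0.10 (edgeR adjusted p = 0.121), and without GR-cKO replicate 3 it was -0.36 with an adjusted p of 0.0141. Etfb, the second most abundant member, was at 343, 333 and 302 CPM in GR-cKO and 348, 327 and 313 CPM in control, a log2 fold change of -0.02 ± 0.07. Etfdh was at 43.1, 44.8 and 52.3 CPM in GR-cKO and 53.9, 53.1 and 45.7 CPM in control (-0.13 ± 0.10, adjusted p = 0.487). The last exon of Etfb is overlapped on the same strand by Gm45233, which had no counts.

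**Figure D3:**
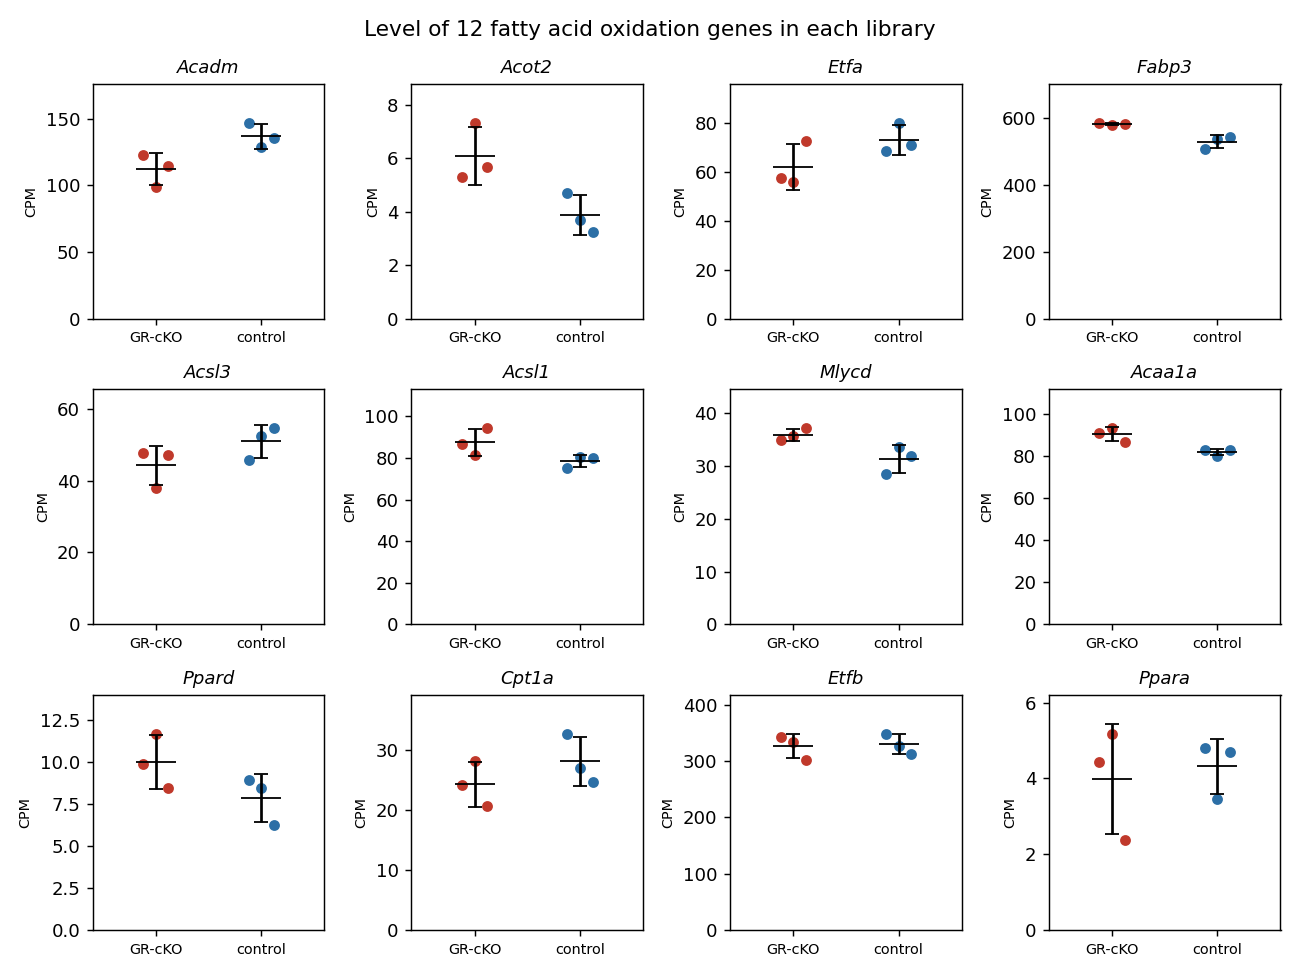
Level in CPM (axes from 0) of the 10 members with the smallest p and of Etfb and Ppara, with a point per library, GR-cKO in red and control in blue; black bars are means and SD (n = 3 each). The groups are apart for Acadm, Acot2, Fabp3, Acsl1, Mlycd and Acaa1a and overlap in the other panels.

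Peroxisomal members did not pass the test. Acaa1a, a peroxisomal thiolase, was at 91.1, 93.1 and 86.6 CPM in GR-cKO libraries, against 82.8, 80.1 and 83.0 CPM in control libraries. The groups did not overlap (log2 fold change 0.14 ± 0.08, edgeR adjusted p = 0.270). Its transcript end is 95.8% identical to a stretch of Acaa1b over 286 bases, and Acaa1b was at 0.309 to 1.78 CPM over the 6 libraries. Hsd17b4, the D-bifunctional enzyme, averaged 23.9 ± 0.524 CPM in GR-cKO and 25.2 ± 4.71 CPM in control (log2 fold change -0.07 ± 0.13). Ehhadh, the L-bifunctional enzyme and a known PPAR alpha target in liver, was nearly absent, at 0.548 to 0.670 CPM in GR-cKO and 0.0988 to 0.797 CPM in control, with an interval of the log2 fold change from -1.07 to 1.90. Control replicate 3 held 2 counts of it, fewer than the 3 that a count of 0 allows. Hsdl2, a dehydrogenase-like protein whose substrate is not settled, averaged 29.7 ± 3.17 CPM in GR-cKO and 33.4 ± 2.66 CPM in control (log2 fold change -0.17 ± 0.11).

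Acot2, a mitochondrial thioesterase that splits long-chain acyl-CoA and is known to respond to PPAR alpha, had the largest fold change of the 32 genes with TMM scaling, and did not pass. It was at 5.29, 7.32 and 5.67 CPM in GR-cKO libraries, against 4.70, 3.70 and 3.26 CPM in control libraries. All GR-cKO libraries were higher than all control libraries, with a log2 fold change of 0.65 ± 0.25 and a 95% interval from 0.12 to 1.17 (edgeR adjusted p = 0.0948). Over 13 alternatives its adjusted p lay between 0.0530 and 0.344.

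The nuclear receptor genes were scarce in this culture. Ppara was at 4.43, 5.18 and 2.37 CPM in GR-cKO libraries and 4.79, 3.47 and 4.69 CPM in control libraries. The ranges overlapped, with a log2 fold change of -0.11 ± 0.30 and a 95% interval from -0.73 to 0.51 (edgeR adjusted p = 0.874). Ppard was at 9.85, 11.7 and 8.45 CPM in GR-cKO and 8.92, 8.43 and 6.22 CPM in control, also overlapping (0.34 ± 0.20, adjusted p = 0.289). With TMM scaling the order of abundance in both groups was Ppard above Ppara.

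Other genes were taken from 7 further lists, among them 10 tested PPAR target genes outside the pathway. Of 91 tested in these lists, 6 rose and 3 fell, against 7.63% that rose and 7.19% that fell over all genes tested. A further 13 of the 104 matched genes had too few counts to test, among them Slc27a6 and Fgf21, and Acsl6, Cpt1b, Acot3 and Ucp3 were at 0 in every library. The median log2 fold change of the 91 was 0.09. ERCC scaling gave 11 higher and none lower, and the falls of Dbi, Acaca and Acat1 did not pass under it (adjusted p of 0.583, 0.137 and 0.0665).

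In uptake and activation, 3 of 8 tested genes rose and 1 fell. Lpl, the lipase that releases fatty acids from circulating lipoproteins, was at 745, 741 and 732 CPM in GR-cKO libraries, against 544, 562 and 563 CPM in control libraries, and rose by 0.41 ± 0.06 on the log2 scale. Gpihbp1, which anchors that lipase on capillary endothelium, was at 3.52, 3.89 and 6.85 CPM in GR-cKO and 0.240, 0.656 and 0.494 CPM in control, and rose 10.1-fold (edgeR adjusted p = 6.66e-06). Fabp4, a carrier protein of capillary endothelium and fat, was at 74.7, 70.0 and 87.9 CPM in GR-cKO and 12.7, 12.2 and 19.4 CPM in control, a log2 fold change of 2.40 ± 0.14. The summed level of endothelial cell markers was also higher. Of 8 such markers 5 rose and 1, Emcn, fell, and their summed level was 1054 to 1149 CPM in GR-cKO libraries against 896 to 919 CPM in control libraries. In bulk RNA a change in the number of cells of a type and a change in RNA per cell cannot be told apart, and the part of endothelial cells in these results was not tested. Fibroblast markers were also higher in sum, at 4766 to 4891 CPM in GR-cKO and 3642 to 3851 CPM in control, with 5 of 9 higher and 1 lower. Smooth muscle and pericyte markers summed to 634 to 691 CPM in GR-cKO and 481 to 487 CPM in control, with 4 of 6 higher. The others, Tagln and Myh11, went the other way without passing (log2 fold change -0.23 and -0.60, edgeR adjusted p of 0.0563 and 0.151). Leukocyte markers summed to 33.8 to 54.0 CPM in GR-cKO and 13.5 to 17.2 CPM in control, with 2 of 5 tested higher. Epicardial markers were lower in sum, at 55.4 to 66.6 CPM in GR-cKO and 87.7 to 91.5 CPM in control, with 2 of 5 lower and 1 higher.

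Dbi, the acyl-CoA binding protein, was at 1266, 1212 and 1114 CPM in GR-cKO libraries, against 1394, 1317.5 and 1374 CPM in control libraries, and fell by 0.19 ± 0.06 on the log2 scale (adjusted p = 0.0400). That call was lost on leaving out any library but GR-cKO replicate 1. Cd36, the main fatty acid translocase of the heart, was at 24.0, 17.6 and 26.7 CPM in GR-cKO and 25.7, 25.6 and 29.8 CPM in control and did not pass (adjusted p = 0.275).

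In the list of carnitine and malonyl-CoA genes, 1 of 6 tested genes fell. It was Acaca, acetyl-CoA carboxylase 1, which makes malonyl-CoA for fatty acid synthesis, at 23.6, 22.2 and 20.4 CPM in GR-cKO libraries and 31.3, 25.8 and 31.1 CPM in control libraries (log2 fold change -0.41 ± 0.12, adjusted p = 0.0209). Its transcript end is also found in the pseudogene Gm5182, which had at most 0.187 CPM in any library. The call was lost without GR-cKO replicate 2 (0.0666), GR-cKO replicate 3 (0.0881), control replicate 1 (0.0868) or control replicate 3 (0.0754). The mitochondrial isoform Acacb averaged 41.9 ± 5.78 CPM in GR-cKO and 36.0 ± 1.92 CPM in control, with no call.

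Of 20 other genes of mitochondrial beta-oxidation and short-chain steps, 1 rose and 1 fell. Acat1, the thiolase of ketone body use and isoleucine breakdown, was at 85.2, 81.6 and 98.2 CPM in GR-cKO libraries, against 109, 121 and 116 CPM in control libraries, and fell by 0.39 ± 0.08 on the log2 scale (edgeR adjusted p = 0.00180). Its call held when any library was left out. Acot13, a thioesterase associated with mitochondria, was at 117, 128 and 119 CPM in GR-cKO and 104, 88.3 and 90.5 CPM in control, a rise of 0.36 ± 0.08 on the log2 scale (adjusted p = 0.00248).

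No call was made among 15 peroxisomal genes tested, 15 peroxisome assembly genes or 17 regulators (edgeR). At an unadjusted p below 0.05 (edgeR) these lists held 2 higher and none lower, 1 higher and 1 lower, and 3 higher and 1 lower. Over all 14386 genes tested, 1884 were higher and 1872 lower at that unadjusted p. DESeq2 called none in any of these lists. The coactivator gene Ppargc1a was at 44.5, 45.9 and 49.1 CPM in GR-cKO libraries and 54.9, 50.1 and 52.7 CPM in control libraries, all lower in GR-cKO without passing (log2 fold change -0.18 ± 0.09, adjusted p = 0.228).

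Among 10 tested PPAR target genes outside the pathway 2 rose and none fell. Angptl4, a secreted inhibitor of lipoprotein lipase that also responds to hypoxia and glucocorticoids, was at 19.4, 16.4 and 16.9 CPM in GR-cKO libraries, against 5.08, 8.72 and 10.0 CPM in control libraries, a 2.21-fold rise (edgeR adjusted p = 0.000143). G0s2, an inhibitor of the lipase that empties lipid droplets, was at 91.0, 91.6 and 100.4 CPM in GR-cKO and 74.3, 79.0 and 78.5 CPM in control (0.29 ± 0.08, adjusted p = 0.0145). That call was lost without GR-cKO replicate 3 (0.0637) or control replicate 1 (0.0591). Pdk4, a kinase that restrains glucose oxidation and a common readout of PPAR and glucocorticoid receptor activity, was at 6.60, 4.98 and 7.42 CPM in GR-cKO and 5.32, 9.84 and 8.84 CPM in control, with overlapping ranges (-0.34 ± 0.24, adjusted p = 0.408).

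**Figure D4:**
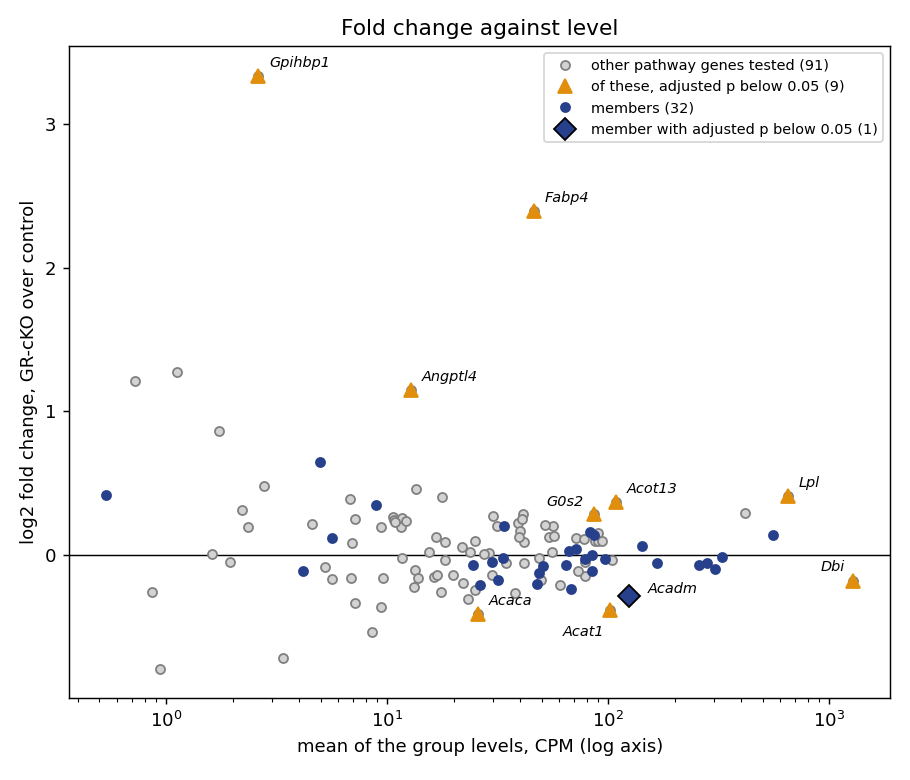
Log2 fold change of GR-cKO over control against the mean level in CPM (log axis). Shown are the 32 members (blue) and 91 tested genes of the further lists (grey), with those past the threshold named. Members of at least 20 CPM lie between -0.29 and 0.20 and those under 20 CPM between -0.11 and 0.65, while Gpihbp1, Fabp4 and Angptl4 are the named genes above 1.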

How the data were processed

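The authors deposited raw counts per gene for 6 QuantSeq 3' mRNA libraries (whole numbers, not normalized), made from 100 ng of total RNA, per the labels' protocols. The submitters' processing notes name cutadapt 1.16, STAR 2.5.4a, featureCounts 1.6.2, DESeq2 1.18.1 and build GRCm38. The strand setting and the handling of multi-mapping reads were not given in the sources used here. Of 52649 rows, 92 ERCC and 7 SIRV rows (1.98% to 2.36% of counts) stayed out of library sizes and tests, and 147 of 52550 gene rows had no GENCODE M21 symbol.

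GR-cKO was compared with control by edgeR 4.0.16 in R 4.3.3 (filterByExpr, TMM, quasi-likelihood test, Benjamini-Hochberg over 14386 genes, threshold 0.05). Standard errors are the log2 fold change over the root of F, the 95% intervals use the total (residual plus prior) degrees of freedom, and the steps were tested on simulated data. The median chi-square per gene between replicates was 2.49 to 3.72, above the 0.455 of pure sampling, so the 6 libraries were kept as separate samples. A count of 0 allows up to 0.133 to 0.155 CPM (3 counts, counting error only). Last exons were compared with other genes of GENCODE M21, and the last 300 bases of transcripts with all transcripts by blastn 2.17.0 (at least 95% identity over 150 bases). Members and lists were chosen with earlier results of these data known. Named genes were the 10 members with the smallest p, the 3 most abundant, Cpt1a and Ppara, the other members in brief, and up to 4 called genes of each further list. Cd36, Acacb, Ppargc1a and Pdk4 were added after their values were seen. Alternatives were other scalings, no filter, DESeq2 1.42.0, a replicate block, leaving out each library, and leaving out chromosomes X and Y.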

Additional observations from a re-analysis of the deposited data

How the results depend on the processing

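Of 415 member values under 13 alternatives, none changed sign while called, 3 lost their call (all Acadm), 1 gained one (Etfa) and 21 others moved by more than the standard error of the TMM fit, 15 of them under ERCC scaling. In all, 34 values changed sign, each passing in neither fit. The median over the members was -0.04 with TMM, 0.05 with ERCC scaling and -0.08 with library size alone, while the median over all genes was -0.01, 0.09 and -0.04. ERCC scaling gave 522 genes lower over all genes, 0 members lower, and 11 genes of the further lists higher and 0 lower. Leaving out 1 library gave 0 to 2 members lower, and 1 to 3 genes of the further lists lower and 5 to 9 higher. It gave 1572 to 1879 calls over all genes, with fewer samples in each fit. The cause of the other shifts was not tested. DESeq2, its size factors, library size alone, no filter and leaving out chromosomes X and Y each gave 1 member lower and none higher. The replicate numbers come from the titles, which do not say what they pair, so they were not taken as pairs. Deviations of same-numbered libraries correlated by at most 0.04, and those of differently numbered ones by -0.08 to 0.06. With so few libraries these values cannot decide whether the numbers mark pairs. With the replicate block 2353 genes were called, against 2132 without it, and again 1 member was lower and none higher. Depth limits the 5 members under 20 CPM, whose standard errors were 0.20 to 0.72 on the log2 scale, against 0.06 to 0.13 for the others.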
